A study of Gallus gallus with 4 samples.

Results

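The peaks described here are those that the study's annotation assigned to MYF5, MYF6 and MYOD1, the myogenic determination genes, in chromatin immunoprecipitation sequencing of the transcription factor c-Myc in chicken muscle cells. They were taken by gene name alone: every row of both deposited peak lists whose nearest gene is MYF5, MYF6 or MYOD1. The rule gave 32 of 20415 peaks, with 24 at MYF5, 5 at MYF6 and 3 at MYOD1. All 32 were in the myoblast list, and the myotube list held none.

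MYF5, MYF6 (also known as MRF4) and MYOD1 encode basic helix-loop-helix transcription factors that commit cells to the skeletal muscle lineage and switch on muscle genes. MYF5 and MYOD1 act in the determination of myoblasts, and MYF6 in determination and in later differentiation. These factors bind E-box DNA with E protein partners, and c-Myc, a helix-loop-helix leucine zipper protein known for driving growth, binds E-boxes with its own partner MAX. In the mouse, Myf5 and Myf6 are neighbours on 1 chromosome and are controlled by many enhancers spread far upstream of the pair, and Myod1 by enhancers upstream of it.

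The samples were primary cells at passage 1 from skeletal muscle of chicken embryos. Differentiated myotubes had been moved to 2% horse serum, and proliferating myoblasts were grown in 15% fetal bovine serum. Each state had 1 library made with a c-Myc antibody (abcam, ab56) and 1 made with IgG (bioss, bs-0310P) as the background. The c-Myc libraries held 8.65M tags in myotubes and 11.5M in myoblasts (M for 1e+06), and the IgG libraries 19.3M in myotubes and 16.1M in myoblasts. The peak lists held 1061 peaks of 154 bp in myotubes and 19354 peaks of 200 bp in myoblasts. No library had a replicate, so no difference between states could be tested, and intervals are 95% intervals of counting error only. Peak lists hold no expression, so the labelled cell type could not be checked against marker levels, and the expression of the 3 genes was not measured.

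None of the 3 genes had a c-Myc peak within 1 kb of its transcription start site (TSS) in either state. Over the 4832 genes named in either list, 1.37% had such a peak in myotubes and 22.0% in myoblasts, so that 0 of 3 genes is a small sample to set beside either share. The closest assigned myoblast peaks lay 12.5 kb upstream of MYF6, 19.0 kb downstream of MYF5 and 82.6 kb downstream of MYOD1. Among the 4766 genes with a myoblast peak the median closest distance was 7.84 kb. A closer peak than that of MYF6 was listed for 61.6% of these genes, than that of MYF5 for 72.2%, and than that of MYOD1 for 96.6%. All 32 peaks were annotated as intergenic, a class that held 77.1% of the myoblast list.

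MYF6 and MYF5 lie in a tandem on chromosome 1 of build galGal4. From the distances that the annotation gives for their peaks, both are on the plus strand, with the MYF6 TSS at 39927239 and the MYF5 TSS at 39931917, 4.68 kb further on. The 5 peaks of MYF6 were all upstream of it and the 24 peaks of MYF5 were all downstream of it, which is where assignment to the nearest TSS puts any peak outside such a pair. No myoblast peak lay between -12.5 kb of MYF6 and 19.0 kb of MYF5. That interval around both genes is 36.2 kb long, and the median spacing of neighbouring peaks on the chromosome was 36.4 kb. An interval picked because it holds a given gene tends to be longer than spacings in general, so these values are not like for like.

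**Figure D1:**
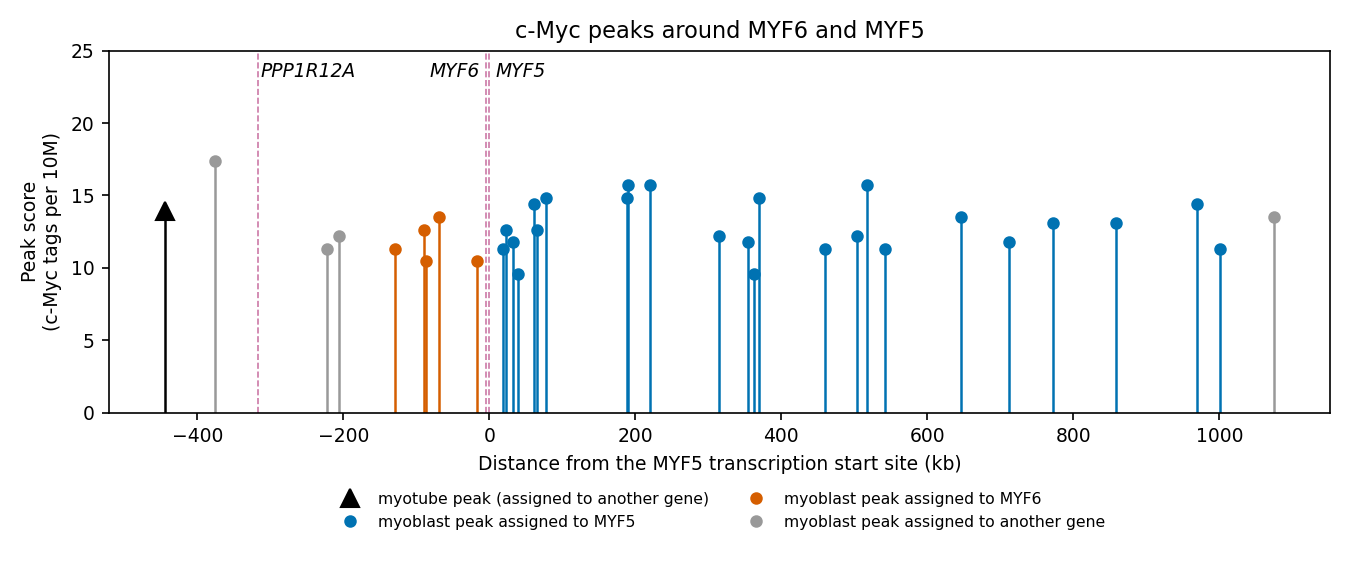
c-Myc peaks around MYF6 and MYF5, by distance of the peak centre from the MYF5 TSS in kb (x axis) and peak score, which is c-Myc tags per 10M (y axis). The black triangle is the 1 myotube peak in the window, circles are myoblast peaks coloured by the gene they were assigned to, and dashed lines mark the TSSs of PPP1R12A, MYF6 and MYF5; 29 of the 33 myoblast peaks belong to MYF5 or MYF6.

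Upstream of MYF6 the peak nearest to the gene was on chromosome 1 from 39914686 to 39914886. It held 14 c-Myc tags and 2 IgG tags in myoblasts. The next, at -64.4 kb, held 15 c-Myc tags (8.40 to 24.7) and was the only one of the 32 with 0 IgG tags, for which the interval reaches 3.69. Its score was 13.5, the highest of the MYF6 peaks. The score is the authors' measure and equals the c-Myc tags that their caller counted, per 10M of the library. The tags printed here are the authors' recount over the final peak, which equals the caller's count at 19 of the 32 peaks and is within 2.5 tags of it at the others. A pair at -82.0 and -84.7 kb, 2.67 kb apart, held 12 and 14 c-Myc tags against 2 and 1 IgG tags. The farthest, at -124.2 kb, held 13 c-Myc and 4 IgG tags and lay in a TG simple repeat. With these 5 peaks the c-Myc tags of MYF6 ranged only between 12 and 15, and no peak stood apart from the others by more than counting error.

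Downstream of MYF5 the peaks began with a run of 4. The first, at 19.0 kb on chromosome 1 from 39950850 to 39951050, held 13 c-Myc and 2 IgG tags. It was labelled as CpG island sequence, the only one of the 32 so labelled, against 5.65% of the myoblast list. The peak at 22.3 kb held 14.5 c-Myc and 4.5 IgG tags, and the one at 32.3 kb 13.5 c-Myc and 1.5 IgG tags. The peak at 39.5 kb, with 11 c-Myc and 0.5 IgG tags, had the lowest c-Myc count of the 32 and a score of 9.59. The peaks at 61.7 and 66.0 kb held 14 and 14.5 c-Myc tags but 7 and 0.5 IgG tags. The counting intervals of these IgG tags (2.81 to 14.4 and 0.000491 to 4.67) overlap, and the difference was not tested. The 7 IgG tags at 61.7 kb were the most at any of the 32 peaks. The peak at 78.0 kb, with 17 c-Myc tags and 1 IgG tag, closed this stretch.

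No peak was listed from there to 188.0 kb. A pair at 188.0 and 189.8 kb, 1.87 kb apart, held 17 and 18 c-Myc tags with 0.5 and 5 IgG tags. The peak at 219.8 kb held 18 c-Myc and 4 IgG tags. The scores of the 3 peaks were 14.8, 15.7 and 15.7, and 15.7 was the highest score of the 32. The 189.8 kb peak lay on chromosome 1 from 40121646 to 40121846 and the 219.8 kb peak from 40151665 to 40151865. The same score, 15.7, was reached again at 517.0 kb, from 40448800 to 40449000, by a peak with 18 c-Myc and 1.5 IgG tags.

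The rest of the MYF5 peaks were spread over the remaining distance. The peak at 314.5 kb held 13 c-Myc and 2 IgG tags. A run of 3 at 354.6, 362.8 and 369.5 kb held 16, 12 and 17 c-Myc tags against 0.5, 3 and 5.5 IgG tags. The last peak of the run lay in a CR1 LINE element. Peaks at 460.4, 503.7 and 542.2 kb held 13, 14 and 12 c-Myc tags and 4, 3.5 and 2 IgG tags, with c-Myc tags below 14.25, the median of the MYF5 peaks. The peak at 645.5 kb, in an ERVL long terminal repeat, held 13 c-Myc and 3.5 IgG tags. Those at 712.0, 771.9 and 857.9 kb held 13.5, 15.5 and 16 c-Myc tags and 2, 3 and 2 IgG tags. The outermost, at 969.2 and 1000.5 kb, held 16.5 and 12 c-Myc tags and 2 and 4 IgG tags. The score did not fall off with distance: the median score was 12.6 in the 7 peaks within 100 kb, 13.5 in the 8 peaks between 100 and 500 kb and 13.1 in the 9 peaks beyond 500 kb. Peaks more than 500 kb from the TSS of their gene were 4.73% of the myoblast list.

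With a largest gap of 10 kb between neighbours, the MYF5 peaks formed 17 clusters, of which 4 held more than 1 peak and took in 11 of the 24 peaks. The MYF6 peaks formed 4 clusters, with 1 pair. In such clusters stood 45.8% of the MYF5 peaks and 40% of the MYF6 peaks, against 31.4% of all myoblast peaks on chromosome 1. The median spacing was 30.02 kb among the MYF5 peaks, 28.6 kb among those of MYF6 and 36.4 kb on the chromosome.

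MYF5 had many peaks and was the nearest gene over a long stretch. Of the 4766 genes with a myoblast peak, 22, MYF5 included, had at least 24, and the median gene had 3. The next TSS of the annotation downstream of MYF5 was that of NTS, which encodes neurotensin, 2124.1 kb away, so that MYF5 was the nearest gene over 1064.4 kb. Over that length the 24 peaks amount to 22.5 per Mb, against 17.2 per Mb on chromosome 1. MYF6 was nearest over 158.6 kb, with 31.5 peaks per Mb from 5 peaks. In the 1 Mb downstream of the MYF5 TSS 23 peaks were listed. The 195 windows of 1 Mb on chromosome 1 held a median of 17 peaks, with 50% of them between 13 and 22, and 77.4% of windows held fewer than 23. In the 1 Mb upstream of the MYF5 TSS 16 were listed, and 40% of windows held fewer.

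The annotation behind the assignment is sparse at these loci. By gene order in the newer assembly GRCg7b, used here for names and order only, 11 protein-coding genes lie between MYF5 and NTS: LIN7A, ACSS3, PPFIA2, CCDC59, METTL25, TMTC2, SLC6A15, TSPAN19, LRRIQ1, ALX1 and RASSF9. None of the 11 has a curated transcript in that table and none is named in either peak list. Between PPP1R12A and MYF6 lie RPS16, OTOGL and PTPRQ, and between MYOD1 and TPH1 lie KCNC1 and SERGEF, again with no curated transcript and no assigned peak. A peak far downstream of MYF5 can therefore be nearer to, or inside, one of these genes, and its assignment to MYF5 and its intergenic label say only that no gene of the authors' annotation was nearer. Which peaks these are was not resolved, because a genome of the files' build was not used here.

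At MYOD1 the 3 assigned peaks stood together downstream of the gene. The annotated distances place the MYOD1 TSS at 11578793 on the plus strand of chromosome 5. The peak at 82.6 kb, from 11661244 to 11661444, held 12 c-Myc and 2 IgG tags. The peak at 90.4 kb, from 11669129 to 11669329, held 16.5 c-Myc tags (9.52 to 26.6) and 0.5 IgG tags, with a score of 14.4. The peak at 100.9 kb, from 11679639 to 11679839, held 12.5 c-Myc tags and 1 IgG tag. The group spans 18.4 kb, and its outer members had a score of 10.5 each, a rank above 8.22% of myoblast peaks with ties counted at their middle.

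Peaks nearer to MYOD1 were assigned to FTL, the ferritin light chain gene, whose TSS lies 8.02 kb upstream of that of MYOD1. In myotubes a peak stood 10.2 kb upstream of the MYOD1 TSS and 2.16 kb upstream of the FTL TSS, on chromosome 5 from 11568529 to 11568683. It held 13 c-Myc tags (6.92 to 22.2) and 5 IgG tags (1.62 to 11.7), which is 15.0 c-Myc and 2.59 IgG tags per 10M of each library, and lay in a CR1 LINE element. In myoblasts no peak was listed there, and the nearest to MYOD1 was 46.4 kb upstream, from 11532317 to 11532517, with 16 c-Myc and 3.5 IgG tags, in the annotated internal part of an ERVL element. The myoblast list thus has a stretch of 128.9 kb around MYOD1 without a peak. Of the spacings between neighbouring myoblast peaks on chromosome 5, 93.7% were shorter. A stretch picked because it holds a given gene tends to be longer than spacings in general, so this share overstates how unusual it is.

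**Figure D2:**
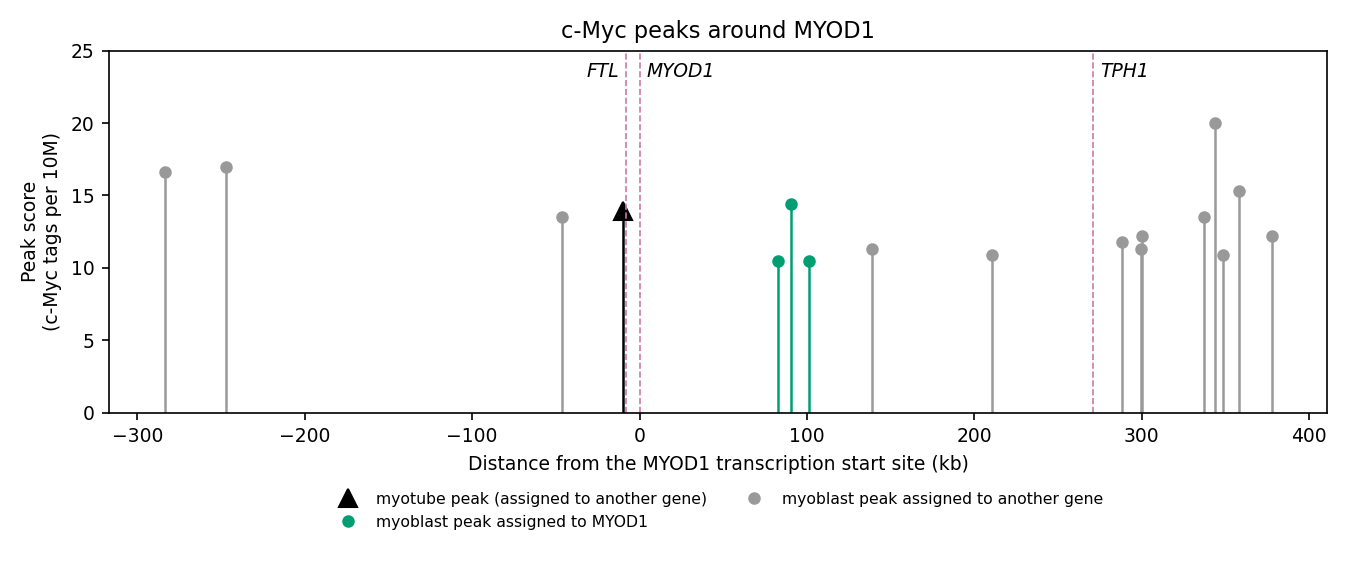
c-Myc peaks around MYOD1, by distance of the peak centre from its TSS in kb (x axis) and peak score in c-Myc tags per 10M (y axis). The black triangle is the 1 myotube peak of the window, 10.2 kb upstream of the TSS and assigned to FTL, and circles are the 16 myoblast peaks, of which the 3 assigned to MYOD1 stand between 82.6 and 100.9 kb downstream; dashed lines mark TSSs.

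MYOD1 was the nearest gene over 139.6 kb, between FTL and TPH1, the tryptophan hydroxylase gene. Its 3 peaks amount to 21.5 per Mb, against 22.2 per Mb on chromosome 5, over a stretch shorter than 1 Mb. Whatever their gene, 32 peaks lay in the 1 Mb downstream of the MYOD1 TSS and 17 in the 1 Mb upstream, while the 59 windows of 1 Mb on chromosome 5 held a median of 21. Fewer than 32 peaks were in 89.8% of these windows, and fewer than 17 in 22.03%. The MYOD1 peaks formed 2 clusters at the 10 kb gap.

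Over all peaks of a gene, c-Myc tags exceeded IgG tags at each of the 3 genes. Since every listed peak had been chosen by the authors for an excess over IgG, this is a description and was not tested. The 24 MYF5 peaks held 352 c-Myc and 65 IgG tags, which per 10M of each library is 306.8 c-Myc and 40.4 IgG tags, a ratio of 7.59 (5.81 to 10.05). The 5 MYF6 peaks held 68 c-Myc and 9 IgG tags, a depth-scaled ratio of 10.6 (5.26 to 24.1). The 3 MYOD1 peaks held 41 c-Myc and 3.5 IgG tags, a ratio of 16.4 (5.20 to 55.2). Over the myoblast list the ratio was 7.80, inside all 3 intervals. The 32 peaks together held 461 c-Myc and 77.5 IgG tags, a ratio of 8.34 (6.50 to 10.7).

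**Figure D3:**
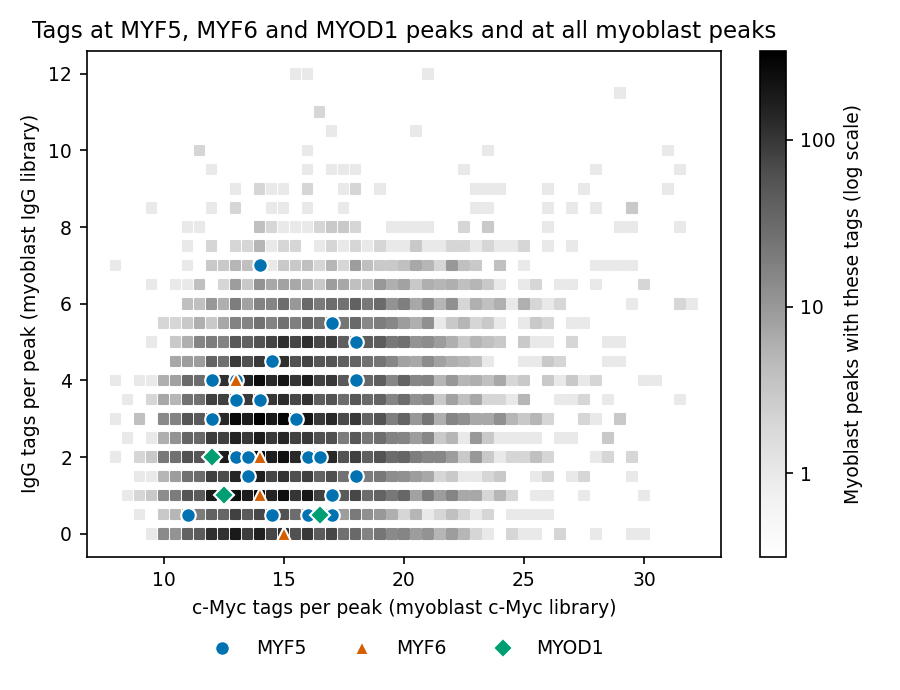
c-Myc tags (x axis) and IgG tags (y axis) per peak in the myoblast libraries, unscaled. Coloured symbols are the 32 peaks of MYF5, MYF6 and MYOD1, which can coincide. Grey squares are all myoblast peaks, darker where more peaks share the values. The 32 peaks run from 11 to 18 c-Myc tags and from 0 to 7 IgG tags, most of them inside the dense part of the list. The MYF5 peak with 7 IgG tags lies at its sparse edge, where 5 myoblast peaks hold 14 c-Myc and 7 IgG tags. Not drawn are 40 myoblast peaks with over 32 c-Myc or over 13 IgG tags.

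None of the 32 peaks stood out by score. Their score ran from 9.59 to 15.7 with a median of 12.4, and the list had a median of 12.6 with 50% of peaks between 11.3 and 14.4. The median was 12.6 at MYF5, 11.3 at MYF6 and 10.5 at MYOD1. Of the 32, 13 scored above the median of the list and 3 equalled it. None reached 16.1, the score at which the upper 10% of the list began. Counting error is wide at this depth: 18 c-Myc tags, the most at any of the 32, stand for 10.7 to 28.4, and 11, the fewest, for 5.49 to 19.7, so that these peaks cannot be ranked among themselves.

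The fold over the local region, the authors' ratio of tags in a peak to tags in its surroundings, was above the median of the list at most MYF5 peaks. At MYF5 it ran from 4.94 to 12.3 with a median of 7.58, and 18 of the 24 peaks lay above the list's median of 5.93. The highest values were 12.3 at 517.0 kb, 11.8 at 219.8 kb and 11.2 at 78.0 kb. At MYF6 it ran from 5.44 to 6.23 and 2 of 5 peaks lay above that median. At MYOD1 the values were 5.35, 5.43 and 5.63, all below it. Among intergenic peaks of the whole list the median was 6.01. Every listed peak had a fold of at least 4, so lower values could not occur.

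**Figure D4:**
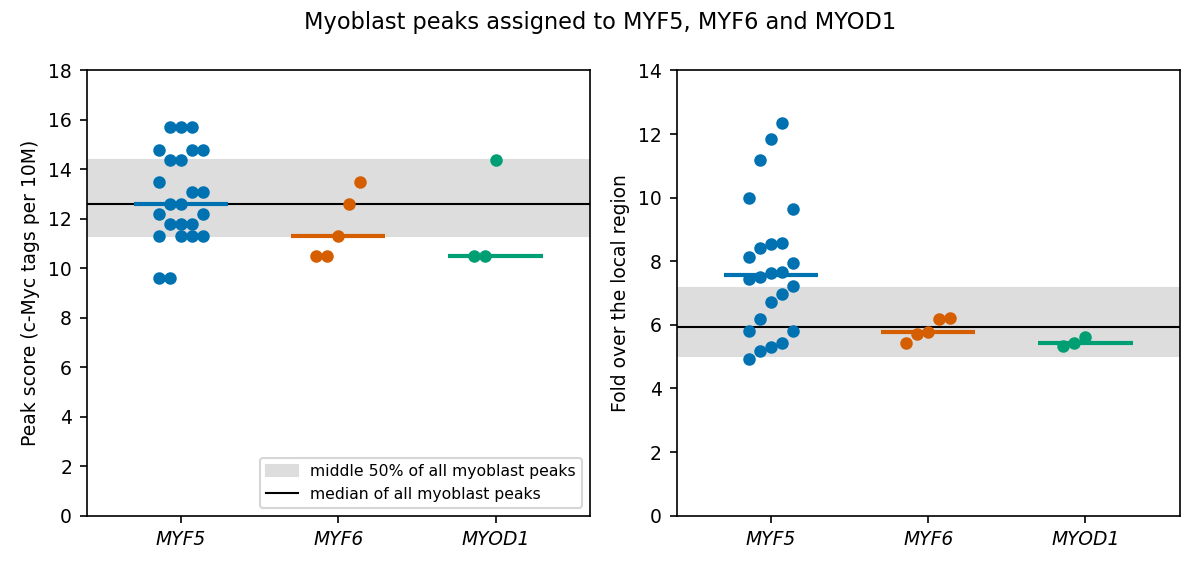
Peak score in c-Myc tags per 10M (left) and fold over the local region (right) of the myoblast peaks of each gene. Points are single peaks, coloured bars are medians, and the grey band and black line give the middle 50% and the median of all myoblast peaks; scores lie within or near the band for all 3 genes, and local folds of MYF5 reach 12.3.

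In myotubes no peak was assigned to any of the 3 genes. Of the 4832 genes named in either list, 18.3% had any assigned peak in myotubes and 98.6% in myoblasts, so that the lack of a myotube peak was the usual case. The nearest myotube peaks to the MYF6 and MYF5 pair were assigned to PPP1R12A, 440.0 kb upstream of MYF6 with 12 c-Myc and 6.5 IgG tags, and to NTS, 1810.7 kb downstream of MYF5 with 11 c-Myc and 2 IgG tags. Neighbouring myotube peaks on chromosome 1 were a median of 728.3 kb apart, and 82.8% of the spacings were shorter than the 2255.3 kb that hold the pair. This share too is inflated, because a spacing that holds a given gene tends to be long.

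The lists give no myotube tags at the 32 myoblast peaks, so whether binding there differed between the states was not tested. The myotube list was 18.2-fold shorter, and at that ratio 32 myoblast peaks correspond to 1.75 myotube peaks. A count of 0 of 1061 allows a share of up to 0.283%, while the 32 peaks were 0.165% of the myoblast list (0.113 to 0.233%). The lowest caller score in myotubes was 11 tags, which is 14.6 tags at the depth of the myoblast c-Myc library. A caller score that high was found at 5 of the 32 peaks, against 25.9% of all myoblast peaks. With tags also scaled in proportion to the wider myoblast peaks, a threshold chosen after seeing the data, 18.9 tags were needed. The highest caller score of the 32 peaks was 17, so none met it, nor did most of the list, of which 4.12% did. By the authors' score, which is already per 10M, the lowest myotube value was 10.4. That value was reached by 22 of the 24 MYF5 peaks and by all 5 MYF6 and all 3 MYOD1 peaks. It lies below 11.3, the lower quartile of the myoblast list. A score of 10.5 ranked above only 8.22% of myoblast peaks, with ties counted at their middle. Most of the list thus reached 10.4 too, and the count is not particular to these peaks. These lowest values are not equivalent. The lowest myotube caller score, 11 tags, is 12.7 tags per 10M of that c-Myc library, above the lowest myotube score of 10.4. In myoblasts the lowest caller score was 12 tags, or 10.5 per 10M, and the lowest score was 7.84. Peaks were thus listed with scores below the lowest caller score. Reaching 10.4 therefore does not show that a peak could have been called in myotubes. Of these measures only the caller score bears on that question.

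Several other genes had nearly the same pattern of peaks. Likeness was the distance between genes in 3 measures on log scales (myoblast peaks, myotube peaks and closest distance), over 4832 genes in the 2 states. Nearest to MYF5 were LSAMP, an adhesion molecule of neurons, with 24 myoblast peaks and the closest at 20.8 kb, MIR1730 with 24 and 27.3 kb, and SGCB, a sarcoglycan of the muscle membrane complex, with 22 and 26.2 kb. Nearest to MYF6 were TXNRD1, a thioredoxin reductase, at 12.5 kb, WDR48 at 12.3 kb and PRKRIP1 at 12.6 kb, each with 5 myoblast peaks. Nearest to MYOD1 were PNAT3, an arylamine acetyltransferase gene, at 82.3 kb, CANX, the chaperone calnexin, at 83.6 kb and DNAJC18 at 81.4 kb, each with 3. All 9 had 0 myotube peaks. Within a distance of 0.1 on this scale stood 1 other gene for MYF5, 31 for MYF6 and 19 for MYOD1.

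**Figure D5:**
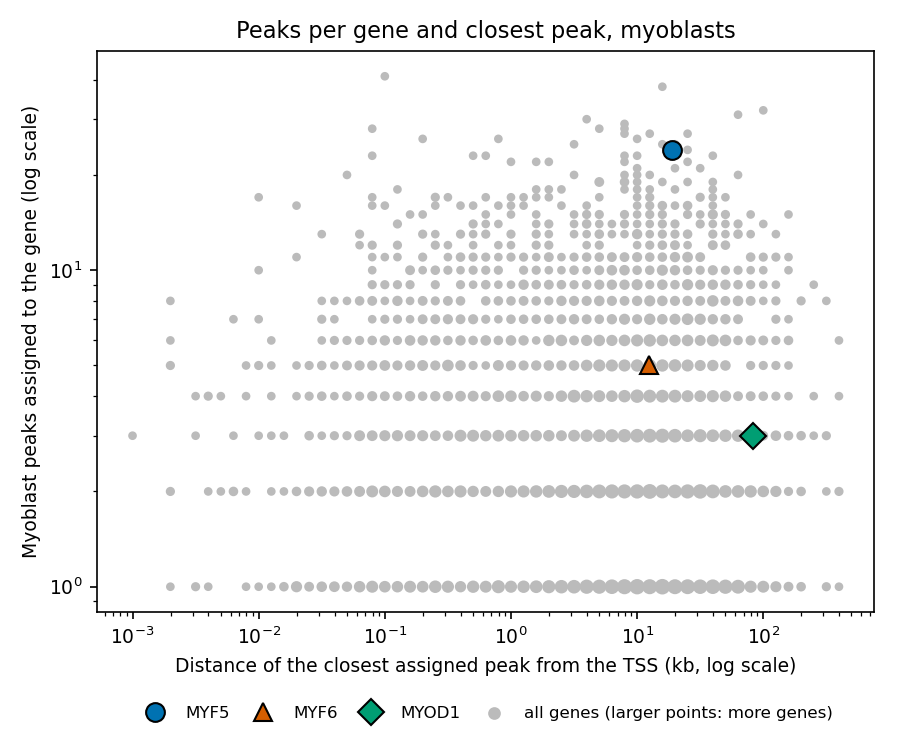
Number of myoblast peaks assigned to a gene (y axis, log scale) against the distance of its closest peak from the TSS in kb (x axis, log scale). Coloured symbols are MYF5, MYF6 and MYOD1, and grey points are all genes of the myoblast list, grouped in narrow steps of distance and larger where more genes share the values; MYF5 stands near the top with 24 peaks and MYOD1 far to the right at 82.6 kb.

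Among other regulators of myogenesis named in the lists, promoter peaks in myoblasts were about as frequent as among all named genes. Of 42 further genes in a list of regulators, 22 were named in either peak list, and 5 of these had a myoblast peak within 1 kb of the TSS (22.7%, against 22.0% of all named genes), a share near the background. They were ID3, an inhibitor of helix-loop-helix factors (peak at -3 bp, 18.5 c-Myc and 2 IgG tags), EYA2, a transcriptional cofactor (-417 bp, 18.5 c-Myc and 3.5 IgG tags), TWIST1, a helix-loop-helix repressor of myogenesis (495 bp, 17.5 c-Myc and 5.5 IgG tags), MEF2A, a partner of the myogenic factors (792 bp, 17.5 c-Myc and 5 IgG tags) and SIX2, a homeobox factor (171 bp, 16 c-Myc tags and 1 IgG tag). None had a promoter peak in myotubes. MYOG, which encodes myogenin, the factor of terminal differentiation in the same family, was named in neither list. The lists name only genes with an assigned peak, and whether the authors' annotation holds MYOG was not checked.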

How the data were processed

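c-Myc and IgG chromatin immunoprecipitation libraries of chicken myotubes and myoblasts were compared as peak lists, 1 library of each kind per state. The tools, per the submitters' processing notes, were CASAVA 1.8.2, Trimmomatic 0.30, FastQC 0.10.1, Bowtie2 2.1.0 and HOMER 4.6, with options not given in the sources used here; the build was galGal4. Peaks of each state were called against its IgG library and annotated to the nearest TSS, per the file headers.

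The score per peak is the authors' and equals the c-Myc tags counted by the caller per 10M, and the caller score is deposited in tags. The signal columns deposited by the authors are unscaled c-Myc and IgG tags per peak, in steps of 0.5, and a depth-scaled IgG column. The tags printed are the authors' recount. The deposited columns of fold over IgG and over the local region are the authors' ratios, at least 4 in every row. The c-Myc to IgG ratios printed here were computed instead from summed recounted tags per 10M, and single peaks can be below 4 on those tags. The p-value per peak deposited by the authors was not used.

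Members were all rows named MYF5, MYF6 or MYOD1. Members and lists were chosen with earlier results of these data known. All member peaks are given. Genes most like a member are the 3 with the smallest Euclidean distance in log2(myoblast peaks + 1), log2(myotube peaks + 1) and log10(closest bp + 1). Further regulators are named where a peak lies within 1 kb of the TSS; MYOG, TCF3, TCF21 and SRF were named after their values were seen, and some regulators are not reported here. TSS positions and strands were derived from peak centres and distances. Tag intervals are exact Poisson intervals for whole tags, and for half-step tags the same formula was applied, which makes them approximate. Ratio intervals are exact (Clopper-Pearson) intervals of the c-Myc share of tags, rounded to whole tags. No test was made. Python 3.11.15, numpy 2.4.6, pandas 2.3.3, scipy 1.17.1 and matplotlib 3.10.9 were used, and the counting was tested on simulated data. By exact symbol, all 3 members and 4343 of 4832 named genes match the RefSeq table of GRCg7b. Sequences under the peaks were not analysed here.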

Additional observations from a re-analysis of the deposited data

Results flagged for a closer look

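A myotube peak 10.2 kb upstream of the MYOD1 TSS, with a score of 13.9, 13 c-Myc tags and 5 IgG tags, lay outside the peaks of the 3 genes because it was assigned to FTL. A myoblast peak 46.4 kb upstream of MYOD1, with a score of 13.5, 16 c-Myc tags and 3.5 IgG tags, was assigned to FTL as well. Both were singled out because c-Myc tags per 10M exceeded IgG tags per 10M within 50 kb of a TSS of the 3 genes, in rows that the gene name leaves out. Every listed peak was called for such an excess, so this says only where they lie. Both were in transposable elements, and the part of repeats in them was not tested.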

How the results depend on the processing

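Of 72 values recomputed under other settings, 51 stayed within the limit used for their kind (for a ratio, its counting interval) and 21 moved. In the upper 50% of the list by score, MYF5 had 13 peaks (closest 22.3 kb), MYF6 2 (64.4 kb) and MYOD1 1 (90.4 kb). The c-Myc to IgG ratio there was 40.6 at MYF6, from 15 and 14 c-Myc tags against 0 and 1 IgG tags. At MYOD1 it was 46.2, from 16.5 c-Myc and 0.5 IgG tags, against 16.4 for all 3 peaks and inside its wide interval. Both ratios rest on very few IgG tags. With a fold over IgG of at least 8, MYF5 had 14 peaks, MYF6 4 and MYOD1 3. The share of the whole list at that fold was not computed, so these counts are not read as a result. Within 100 kb of the TSS, MYF5 had 7. Counting every peak within 200 kb whatever its gene, there were 14 around MYF5, 14 around MYF6 and 5 around MYOD1. In myotubes that count was 1 around MYOD1 and 0 around the other 2 genes, and within 500 kb it was 1 around each. Requiring the lowest myotube caller score after scaling for depth and width, an alternative chosen after seeing the data, left 0 peaks at each gene. Requiring instead the lowest myotube score, 10.4 per 10M, kept 22 peaks at MYF5, 5 at MYF6 and 3 at MYOD1. Most of the myoblast list reached that score too. Listed scores fall below the lowest caller score, so this count does not show which peaks could have been called in myotubes. With a gap of 20 kb the MYOD1 peaks formed 1 cluster. With a 5 kb window 9 of the 22 named regulators had a myoblast peak. The share of all named genes at that window was not computed, so the count is not read as a result. Over all genes with a myoblast peak the median closest distance was 7.84 kb. Leaving out repeats moved no value beyond these limits. No paired analysis was possible because each group had 1 library. The 32 peaks held 11 to 18 c-Myc tags each, so single peaks carry wide counting intervals.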

Other observations

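Some further regulators of myogenesis had their closest myoblast peak outside the 1 kb window. TCF21, a helix-loop-helix factor of mesoderm, had it at 1261 bp (12 c-Myc and 3 IgG tags), labelled as promoter by the authors. SRF, the serum response factor, had its only peak at -3395 bp (14 c-Myc and 4 IgG tags). The SRF peak was labelled as the 3' UTR of a transcript and not as promoter. TCF3, which encodes the E proteins that pair with the myogenic factors, was named only in the myotube list, with a peak 8.55 kb downstream of its TSS (11.5 c-Myc and 5.5 IgG tags). Of the 4832 named genes, 98.6% had a myoblast peak. TCF3 was picked after its values were seen and rests on 1 peak, so no difference between states is read from it.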
